A study of Mus musculus with 18 samples.

Results

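Starved macrophages of PHD3 knockout mice were compared with starved wild-type macrophages, 3 samples of each, which makes 6 of the 18 samples of the study. The 6 samples were chosen by their titles, which give the genotype, an oxygen value of 20, the feeding state and a replicate number. All of them were macrophages grown for 7 days with macrophage colony stimulating factor from the femoral marrow of male C57BL/6J mice aged 8 weeks. The knockout samples carry the genotype PHD3-/- and the label starved. In their labels, the wild-type samples differ from them in genotype alone. The starved knockout samples lay on array slides 1, 3 and 4 and the starved wild-type samples on slides 2, 5 and 4. Genotype and slide can therefore not be fully told apart. The other 12 samples are knockout and wild-type cells at oxygen 20 with control feeding and at oxygen 1 with control feeding, 3 of each. The oxygen values have no unit in the labels. The sources used here do not give whether cells or mice were starved. The design text names 3 mice for each group, and it does not say whether samples with one number came from one mouse. The labels do not say which part of the gene is deleted, and they name no Cre driver, so the samples are called knockout here because they are labelled so.

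PHD3, encoded by Egln3, is a prolyl hydroxylase that needs oxygen. Enzymes of its family modify hypoxia-inducible factor (HIF) so that its alpha chain is destroyed while oxygen lasts. Egln3 is itself a HIF target, and its messenger RNA rises in hypoxic cells of many kinds. PHD3 has also been described as a regulator of cell death, and macrophage survival under stress is the subject that the series title gives. The comparison therefore asks whether starved macrophages differ in expression when PHD3 is absent.

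The cells carried macrophage transcripts in both genotypes. Of 42 listed macrophage genes, 41 were measured and 39 were well above background in all 6 samples. Levels are log2 values with the 75th percentile of an array set to 0, and differences are knockout minus wild type on the same scale with the standard error of the fit. Csf1r, the receptor for the growth factor in the medium, averaged 6.56 in starved knockout cells and 6.63 in starved wild-type cells, and Adgre1, which encodes a widely used surface antigen of mouse macrophages, averaged 6.71 and 6.72. The difference was -0.08 for Csf1r and -0.01 for Adgre1, each smaller than its standard error. Over the 41 macrophage genes the median was -0.03, with 26 below 0. An unadjusted p under 0.05 was seen in 3 of them, Lyz2, Mpeg1 and Cybb, all lower in knockout cells (0.894% of all genes), and in 4 the knockout samples lay wholly below the wild-type samples (2.32% of all genes). Across the 6 samples, the mean correlation with the other 5 lay between 0.991 and 0.993. The lowest value belonged to wild-type sample 3, whose first principal component score of 49.6 lay apart from the range of -24.9 to 6.56 of the other 5 samples.

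The targeted gene came first. The brighter Egln3 probe read -2.33, -2.29 and -2.61 in starved knockout samples, against -2.19, -2.35 and -2.36 in starved wild-type samples. The groups overlapped, and the difference was -0.11 ± 0.16 (95% interval -0.45 to 0.23, limma adjusted p = 1). A second probe read -2.76, -2.82 and -3.26 in knockout samples and -2.66, -2.75 and -2.91 in wild-type samples, a difference of -0.17 (95% interval -0.52 to 0.17). Neither probe can check the genotype, because the position of the probes relative to the deleted part is not given. Starvation moved Egln3 in both genotypes by limma's test. It rose by 1.54 over controls in knockout cells (adjusted p = 1.47e-05) and by 1.16 in wild-type cells (adjusted p = 0.000183). With control feeding the genotype difference of this probe was -0.49 (unadjusted p = 0.00786, adjusted p = 1). At oxygen 1 the same probe stood at 2.85 ± 0.14 in knockout cells and 2.90 ± 0.09 in wild-type cells (SD, n = 3 each), with overlapping groups.

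The promoter of Egln3 is shown because the gene rose on starvation in both genotypes and is itself a HIF target. The stretch is the 250 bases before the start of the gene on the minus strand, at chr12:54203875-54204124 of GRCm38.p6, taken from RefSeq. Capitals mark the core of the HIF binding motif, searched as ACGTG and GCGTG on both strands. Egln3 has 1 such match, which begins 229 bases before the start. Of 32851 promoter windows of the same length in the RefSeq table, 12679 (38.6%) hold at least 1 match, so the match is a description only.
Egln3: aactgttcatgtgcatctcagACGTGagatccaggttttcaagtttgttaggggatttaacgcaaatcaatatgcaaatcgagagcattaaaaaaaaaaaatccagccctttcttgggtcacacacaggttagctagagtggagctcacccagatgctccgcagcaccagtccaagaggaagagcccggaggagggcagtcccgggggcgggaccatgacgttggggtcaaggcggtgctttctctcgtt

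The other HIF hydroxylases and HIF subunits gave no call. Of 11 listed genes, 10 were measured, and 6 lay above 0 and 4 below it, with a median difference of 0.069. Without knockout sample 3 the median was 0.017, and it changed sign in 2 of 18 alternatives, with a lowest value of -0.060. P4htm, a transmembrane prolyl hydroxylase of the endoplasmic reticulum, showed the largest difference. It read -5.90, -5.66 and -6.01 in starved knockout samples and -6.24, -6.02 and -6.68 in starved wild-type samples, and the difference was 0.46 ± 0.23 (unadjusted p = 0.0643, adjusted p = 1). Only 1 of the 3 wild-type samples was well above background for P4htm. Hif1an, the asparaginyl hydroxylase that blocks HIF transactivation, read -2.0, -2.03 and -2.0 in knockout samples and -2.28, -2.04 and -2.33 in wild-type samples, groups that touch but do not cross. Egln2 and Egln1, which encode the other prolyl hydroxylases of the family, differed by -0.01 and 0.03. Hif1a differed by -0.17 (95% interval -0.70 to 0.36). Epas1, which encodes the alpha subunit of HIF-2, differed by 0.10 at the probe used and by -0.41 at a second, dimmer probe.

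Across all genes the 2 genotypes were close under starvation. No gene of 20813 passed an adjusted p of 0.05 in limma's moderated test (0%), and the smallest adjusted p was 0.122. At an unadjusted p under 0.05 there were 394 genes, 208 higher in knockout cells (0.999%) and 186 lower (0.894%). In 595 of the 20680 genes with all 6 values the knockout samples lay wholly above the wild-type samples (2.88%), and in 480 wholly below (2.32%). The median difference was 0.0037, and the middle of the distribution, between its 5th and 95th percentiles, ran from -0.288 to 0.297. Without wild-type sample 3 there was still no call, and 573 genes had an unadjusted p under 0.05. Leaving out knockout sample 2 gave 1 call, Tmem45a, and leaving out knockout sample 3 gave 2, 1700109H08Rik and XM_001476382, all of them named after their values were seen. The size that could have been missed is given by the intervals. The 95% interval lay inside a 2-fold difference for 88.7% of genes and inside 1.5-fold for 69.3%. When genes were split by level into 3 equal parts, the 2-fold share of the dimmest part was 70.0%, against 97.4% for genes of middle level and 98.8% for the brightest. A difference over 1 was seen in 213 genes, 113 higher and 100 lower, nearly all at low levels in the plot of difference against level.

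**Figure D1:**
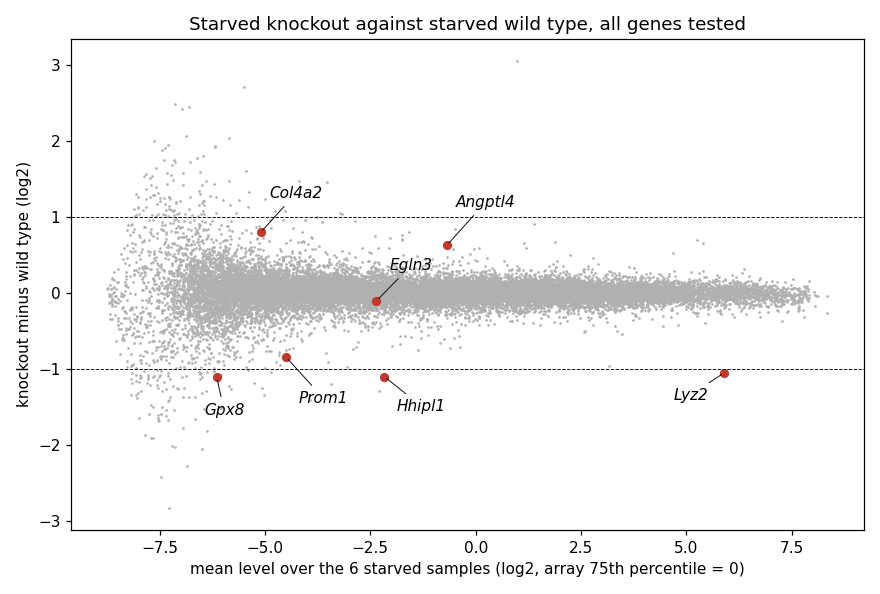
Difference between starved knockout and starved wild-type cells (log2, y axis) against the mean level over the 6 starved samples (log2, x axis) for 20813 genes, with 7 genes marked in red and dashed lines at a 2-fold difference. The spread is widest at low levels, and Lyz2 at -1.06 stands below the other genes of its level.

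The largest single difference rested on 1 sample. Trim12a, a member of the TRIM family of ubiquitin ligases, read 2.99, 2.74 and 1.79 in starved knockout samples and -6.99, 2.71 and 2.68 in starved wild-type samples. The difference of 3.04 ± 2.81 came from wild-type sample 1, and the other 5 samples lay within 1.79 and 2.99. The samples numbered 1 of wild-type cells were also low with control feeding (-4.97) and at oxygen 1 (-7.07), while every knockout sample read 1.79 or more. Trim12a was named after its values were seen.

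Lyz2 had the smallest p among genes with a symbol. It encodes lysozyme 2, a bactericidal enzyme of the myeloid lineage and a defining transcript of macrophages, and its locus carries the recombinase of the LysM-Cre line. Starved knockout samples read 5.50, 5.47 and 5.12, against 6.59, 6.44 and 6.24 in starved wild-type samples. All 3 knockout samples lay below all 3 wild-type samples, as the rule for naming genes of smallest p required. The gap was wider than the range of either group. The difference was -1.06 ± 0.16 (95% interval -1.40 to -0.71), a 2.08-fold lower level (unadjusted p = 1.18e-05, limma adjusted p = 0.122), and so it missed the threshold. On the only slide that held starved samples of both genotypes, knockout sample 3 minus wild-type sample 3 was -1.12. Without wild-type sample 3, which stood apart, the fitted difference was -1.15 (adjusted p = 0.273). No spot was saturated on any array. In bulk samples, fewer cells of a type and less RNA per cell cannot be told apart.

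The same gap appeared in cells that had not been starved. With control feeding, Lyz2 read 5.52, 5.34 and 5.37 in knockout samples and 6.63, 6.22 and 6.39 in wild-type samples. At oxygen 1 it read 4.71, 4.08 and 4.46 in knockout samples and 5.55, 5.29 and 5.46 in wild-type samples. In each unstarved condition every knockout sample lay below every wild-type sample for Lyz2. Samples of one number may share a mouse. Averaged over both unstarved conditions, with group means from other samples than the starved ones but the same pooled estimate of the spread, the difference was -1.01 ± 0.11, and here Lyz2 passed limma's test (adjusted p = 0.00712). Only 2 of 20813 genes did so (0.00961%), Lyz2 and Hhipl1. When samples of one genotype and number were averaged first, 3 against 3, the difference was still -1.01, but the adjusted p was 0.74 and no gene passed.

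Lyz1, the neighbouring lysozyme gene, did not show the gap in starved cells. It read 6.15, 6.33 and 6.00 in starved knockout samples and 6.42, 6.11 and 6.25 in starved wild-type samples, which overlap, and the difference was -0.10 ± 0.18. With control feeding the Lyz1 groups also overlapped. At oxygen 1 Lyz1 read 6.28, 6.16 and 5.86 in knockout samples, below the 6.34, 6.38 and 6.31 of wild-type samples. The promoters of both genes are printed to show where the sequences of the neighbours match and where they differ. They lie on chromosome 10 on the minus strand and their starts are 10.6 kb apart. The stretches are the 250 bases before each start, at chr10:117282273-117282522 for Lyz2 and chr10:117292869-117293118 for Lyz1 of GRCm38.p6, from RefSeq. Of 248 aligned positions 200 (80.6%) were identical, and capitals mark the bases without an identical partner. Whether the array probes tell the 2 transcripts apart was not tested.
Lyz2: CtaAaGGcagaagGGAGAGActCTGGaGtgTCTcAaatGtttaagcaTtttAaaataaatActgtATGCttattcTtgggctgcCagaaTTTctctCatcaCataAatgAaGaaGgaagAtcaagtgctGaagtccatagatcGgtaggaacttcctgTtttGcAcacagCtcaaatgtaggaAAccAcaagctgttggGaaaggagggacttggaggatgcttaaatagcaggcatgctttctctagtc
Lyz1: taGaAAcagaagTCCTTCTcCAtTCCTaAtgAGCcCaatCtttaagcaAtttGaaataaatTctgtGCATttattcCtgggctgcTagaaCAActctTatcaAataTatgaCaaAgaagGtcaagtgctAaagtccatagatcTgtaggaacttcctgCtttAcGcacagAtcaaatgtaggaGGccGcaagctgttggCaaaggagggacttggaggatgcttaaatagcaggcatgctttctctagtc

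Hhipl1, which encodes a protein related to the hedgehog-interacting protein, repeated the pattern of Lyz2. It read -2.80, -2.57 and -2.80 in starved knockout samples and -1.60, -1.39 and -1.86 in starved wild-type samples. The groups did not overlap, as the rule for naming genes of smallest p required. The difference was -1.10 ± 0.21 (adjusted p = 0.361), against -1.13 with control feeding and -1.06 at oxygen 1. Over both unstarved conditions it was -1.10 ± 0.15 (adjusted p = 0.0277), a call lost in the average per number (adjusted p = 0.74) and kept in 12 of 23 other settings (adjusted p from 0.00748 to 0.14). Hhipl1 and Egln3 lie on the same chromosome, 12. Hhipl1 is not among the 10 nearest measured genes on either side of Egln3. Prom1, which encodes the membrane glycoprotein prominin 1, read -4.76, -4.96 and -5.06 in starved knockout samples and -3.80, -4.16 and -4.27 in starved wild-type samples. Its difference was -0.85 ± 0.21 (adjusted p = 1), with -0.83 and -0.60 in the other conditions, and no call there either (adjusted p = 0.656).

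**Figure D2:**
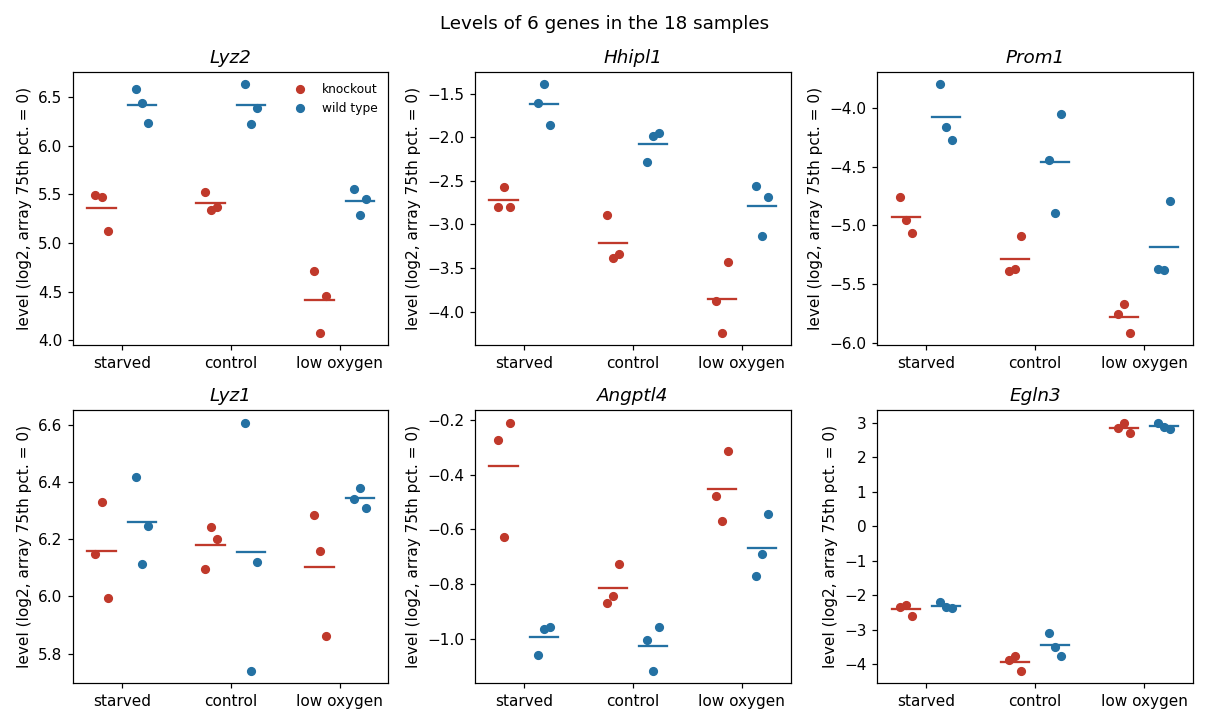
Levels (log2, y axis) of Lyz2, Hhipl1, Prom1, Lyz1, Angptl4 and Egln3 in the 18 samples, by condition, with knockout in red left of wild type in blue and bars at the means of 3 samples. Lyz2, Hhipl1 and Prom1 are lower in knockout cells in each condition, Lyz1 and Egln3 overlap when starved, and Angptl4 is higher in starved knockout samples (-0.27, -0.63 and -0.21) than in starved wild-type samples.

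A pair of transcripts without a symbol was named after their values were seen. NM_146065 read 2.58, 2.86 and 2.59 in starved knockout samples and 3.93, 3.78 and 3.24 in starved wild-type samples, a difference of -0.97 ± 0.21 (adjusted p = 1), with -0.90 and -0.88 in the other conditions. XM_001476382 was well above background in 3 of 3 knockout samples and in 0 of 3 wild-type samples. It read -5.74, -5.18 and -6.11 in knockout samples and -6.90, -7.22 and -7.29 in wild-type samples. The fitted differences of XM_001476382 were 1.08 with control feeding and 0.38 at oxygen 1. It was at least 1.70-fold higher in knockout cells (limma adjusted p = 0.122). This bound sets the mean of the brighter group against the mean of the dimmer one, where each array of the dimmer group counts with the higher of its lowest signal well above background and the transcript's own signal. "At least" has this sense throughout.

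Among the 12 genes with the smallest p on the higher side, Angptl4 led. It encodes a secreted inhibitor of lipoprotein lipase, and it is a known target of HIF and of the fatty acid sensors of the PPAR family. Starved knockout samples read -0.27, -0.63 and -0.21, against -1.06, -0.96 and -0.96 in starved wild-type samples. Every knockout sample lay above every wild-type sample, as the choice of these 12 genes required. The difference of 0.62 ± 0.11, 1.54-fold, did not pass (adjusted p = 0.361), and it was 0.21 with control feeding and 0.22 at oxygen 1. Starvation raised Angptl4 by 0.44 in knockout cells (adjusted p = 0.016), while in wild-type cells the value was 0.03 (adjusted p = 0.913). The difference between those responses, 0.41, did not pass its own test (unadjusted p = 0.0215, adjusted p = 1).

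The other 11 genes on that side had differences between 0.25 and 0.90, each with an adjusted p of 1. Col4a2, a chain of basement membrane collagen, read -4.80, -4.44 and -4.88 in starved knockout samples and -5.20, -5.36 and -5.93 in starved wild-type samples, with a difference of 0.79 ± 0.19. In the other conditions it was -0.04 and -0.41. Bach1, a heme-sensing repressor of antioxidant genes, read 2.85, 2.63 and 2.69 in knockout samples and 2.46, 2.40 and 2.38 in wild-type samples, with 0.31 ± 0.10. Hmox1, the heme oxygenase that BACH1 represses, is not one of these 11. It read 5.79, 5.30 and 5.48 in knockout samples and 5.28, 5.31 and 5.13 in wild-type samples, which overlap. The difference was 0.28 ± 0.11 at the probe used and 0.07 at a second probe. Fut7, the fucosyltransferase that makes selectin ligands, differed by 0.41 ± 0.11, and its second probe by 0.35. Ptgr2, a prostaglandin reductase, differed by 0.30 at the probe used but by 0.02 and -0.01 at its other probes. Sephs1, a selenophosphate synthetase family member, likewise differed by 0.25 at one probe and 0.07 at the other. The remaining members were Cmbl (0.69), Gpr82 (0.90), Rcor2 (0.34), Brca2 (0.37), Unkl (0.27) and Ly6k (0.58). For Gpr82, an orphan receptor, no wild-type sample was well above background, and the bound was at least 1.24-fold higher in knockout cells.

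On the lower side, other genes followed Lyz2, Hhipl1 and Prom1. Gpx8, a glutathione peroxidase of the endoplasmic reticulum, was well above background in 0 of 3 starved knockout samples and 3 of 3 starved wild-type samples. It read -6.88, -6.39 and -6.84 in knockout samples and -5.37, -6.06 and -5.35 in wild-type samples. It was at least 1.96-fold lower in knockout cells (adjusted p = 0.361), with differences of -0.14 and -0.06 in the other conditions. Starvation lowered Gpx8 in both genotypes, with adjusted p = 8.96e-06 in knockout cells, where the starved level is only a bound, and with a fall of 1.18 in wild-type cells (adjusted p = 0.00142). Adamts2, a procollagen peptidase, was also not well above background in any knockout sample, where its own signal set the bound on every array, and it was at least 1.55-fold lower there (adjusted p = 1). Wnt6, a secreted ligand, read -2.37, -2.05 and -1.86 in knockout samples and -1.12, -1.69 and -1.74 in wild-type samples, with -0.57 ± 0.19. Paqr3, a Golgi protein that tethers regulators of sterol synthesis and signalling, differed by -0.81 ± 0.19 when starved and by 0.54 and -0.29 in the other conditions. Gpt, an alanine aminotransferase, differed by -0.25 ± 0.08. Speg, a kinase known from muscle, differed by -0.24 at the probe used and by -0.03 and -0.17 at its other probes. Arv1, a lipid transport factor, and Hsd17b7, a sterol reductase, gave -0.30 and -0.44.

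**Figure D3:**
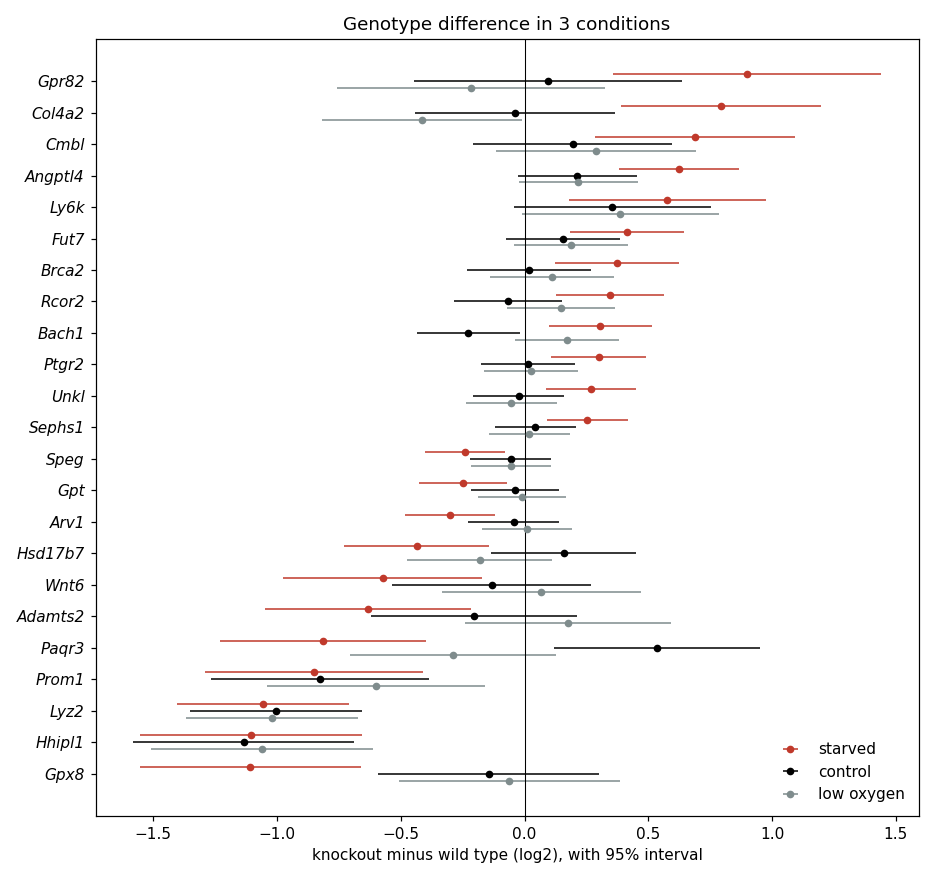
Knockout minus wild-type difference (log2, x axis) with 95% intervals for genes of smallest p on each side in starved cells, shown for starved (red), control (black) and low oxygen (grey) samples. Lyz2, Hhipl1 and Prom1 keep a similar size in all 3 conditions, while Angptl4 is at 0.62 when starved and 0.21 and 0.22 otherwise.

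Whether the genotype difference under starvation departed from that in the other conditions was tested for every gene. No gene passed, for starved minus control or for starved minus low oxygen. The smallest adjusted p was 1 in both limma tests, and 216 and 260 genes had an unadjusted p under 0.05. Of the 12 higher genes, 8 had the same sign with control feeding and 9 at oxygen 1, and of the 12 lower genes 10 and 9 did. Over all 20813 genes, 10631 and 11832 had the same sign. A size of at least 0.5 times the starved one in both other conditions was reached by 1 of the 12 higher genes and by 3 of the 12 lower ones. Over all 20813 genes, 3032 reached it.

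Starvation itself moved many genes in both genotypes. By limma's test against controls of the same genotype, 1485 genes rose in knockout cells (7.13%) and 1327 fell (6.38%). In wild-type cells 1350 rose (6.49%) and 1252 fell (6.02%). The gene lists below are described by counts and medians, since no member of any of the 28 lists passed between the starved genotypes.

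Cholesterol biosynthesis showed the list median farthest below 0. The genes are targets of the sterol sensor SREBP2 and rise when cells lack sterol. All 26 listed genes were measured, 25 had a difference below 0, and the median was -0.23 against 0.0037 over all genes. Of the 26, 2 were lower with an unadjusted p under 0.05 (0.894% of all genes), and 1, Hsd17b7, had groups that did not overlap (2.32% of all genes). Hsd17b7 read -1.76, -1.42 and -1.54 in starved knockout samples and -1.17, -1.29 and -0.95 in starved wild-type samples. Acat2, which makes the first intermediate of the pathway, read -2.04, -1.39 and -1.95 in knockout samples and -1.44, -1.41 and -1.38 in wild-type samples. Nsdhl, a late sterol dehydrogenase, read -0.58, 0.08 and -0.56 in knockout samples and 0.00, -0.07 and -0.13 in wild-type samples. In Acat2 and Nsdhl, knockout samples 1 and 3 lay below all wild-type samples, while knockout sample 2 lay among them for Acat2 and above them for Nsdhl.

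The whole list had that shape. The median deviation of its members from their means over the 6 samples was -0.33, 0.16 and -0.17 in knockout samples and 0.22, 0.01 and 0.09 in wild-type samples. Without knockout sample 1 the list median was -0.10, with 22 genes below 0, and without knockout sample 2 it was -0.37. With the slide as a fixed term it was -0.36. Starvation raised 22 of the 26 genes in knockout cells and 23 in wild-type cells, with median responses of 0.97 and 1.19. In the unstarved conditions the median genotype difference was 0.04 with control feeding and -0.09 at oxygen 1.

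Cell cycle genes lay the other way. Of 48 listed genes 47 were measured, 42 had a difference above 0 and 5 below, and the median was 0.16. None had an unadjusted p under 0.05, and in 11 of the 47 all knockout samples lay above all wild-type samples, as they did in 2.88% of all genes. Uhrf1, which maintains DNA methylation during replication, read 0.92, 1.02 and 1.07 in starved knockout samples and 0.56, 0.75 and 0.78 in starved wild-type samples (0.31 ± 0.15, unadjusted p = 0.0547). Cdt1, which licenses replication origins, read 3.16, 3.19 and 3.21 in knockout samples and 3.03, 2.93 and 2.91 in wild-type samples (0.23 ± 0.12). Cdc20, an activator of the anaphase-promoting complex, gave 0.21 ± 0.11 with overlapping groups. The median deviation of the list was 0.02, 0.20 and 0.02 in knockout samples and -0.09, -0.07 and -0.11 in wild-type samples, and the list median stayed between 0.112 and 0.200 with any 1 of the 6 samples left out. With the slide as a fixed term it was 0.057. The genotype median was 0.12 with control feeding and 0.16 at oxygen 1. Starvation lowered 37 of the genes in knockout cells and 39 in wild-type cells, with medians of -0.95 and -1.02, and raised 1 in each.

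Genes of inflammation were mostly below 0. Of 47 listed cytokines and chemokines 40 were measured, 35 had a difference below 0, and the median was -0.17. An unadjusted p under 0.05 was seen in 5 genes, all lower in knockout cells, and 3 genes had groups that did not overlap in that direction, against 0.894% and 2.32% of all genes. Csf2, the growth factor GM-CSF, was well above background in 0 of 3 starved knockout samples and 3 of 3 starved wild-type samples. It read -6.80, -6.77 and -6.52 in knockout samples and -6.02, -5.77 and -6.08 in wild-type samples, at least 1.46-fold lower in knockout cells (adjusted p = 1). Il1a, which encodes interleukin 1 alpha, read -6.53, -6.16 and -6.02 in knockout samples and -4.94, -5.47 and -6.23 in wild-type samples. Lcn2, which encodes an iron-binding protein of innate defence, read 3.03, 3.62 and 2.98 in knockout samples and 4.05, 3.65 and 3.57 in wild-type samples. Both genes had overlapping groups. The list's median deviation was -0.14, -0.06 and -0.08 in knockout samples and 0.09, 0.03 and 0.04 in wild-type samples. The genotype median was -0.08 with control feeding and 0.03 at oxygen 1. Among genes well above background in all 18 samples the list median was -0.11. The separate list of Toll-like receptors and C-type lectins was balanced, with 13 genes above 0, 15 below and a median of -0.02. Its lowest member was Clec4e, a receptor for microbial glycolipids, at -0.52 ± 0.21.

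Interferon-stimulated genes depended on single samples. Of 50 listed genes 45 were measured, 41 lay above 0, and the median was 0.11. Ifi35 read 2.96, 2.82 and 2.71 in starved knockout samples and 2.53, 2.61 and 2.41 in starved wild-type samples (0.31 ± 0.14, unadjusted p = 0.0402). It was the only 1 of the 45 with groups that did not overlap, against 2.88% of all genes with the knockout higher. Oas2, an antiviral sensor of double-stranded RNA, read 4.64, 4.42 and 4.37 in knockout samples and 4.06, 4.08 and 4.55 in wild-type samples. Ddx58, which encodes the RNA sensor RIG-I, read 3.69, 3.26 and 3.28 in knockout samples and 3.14, 3.24 and 3.31 in wild-type samples. The median deviation of the list was 0.29, -0.03 and -0.10 in knockout samples and -0.18, -0.01 and 0.02 in wild-type samples. Without knockout sample 1, 24 genes lay above 0 and the median was 0.0051, and without wild-type sample 1 the median was 0.020. With control feeding the genotype median was -0.14 and at oxygen 1 it was -0.08. NRF2 targets shared the high value of knockout sample 1, with median deviations of 0.29, -0.05 and -0.10 in knockout samples and 0.09, -0.03 and -0.17 in wild-type samples. Their median difference of 0.05 became -0.08 without knockout sample 1.

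**Figure D4:**
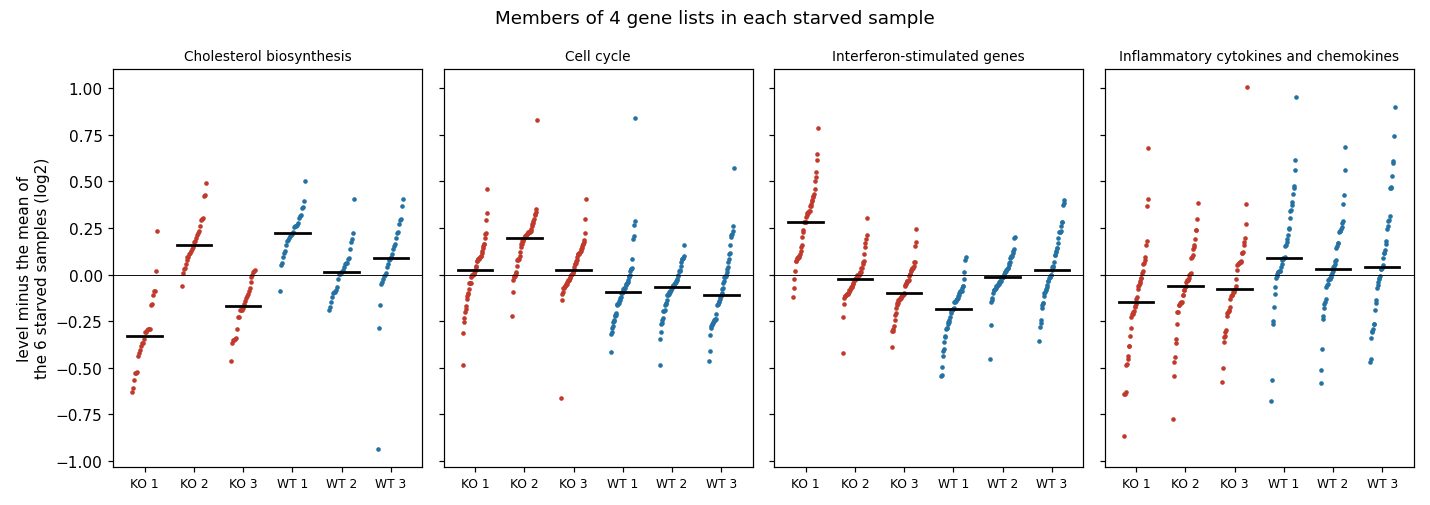
Level of each member of 4 gene lists minus its mean over the 6 starved samples (log2, y axis), by sample, with knockout samples in red left of wild-type samples in blue and black bars at the median. Cholesterol genes are low in knockout samples 1 and 3 (-0.33 and -0.17) and not in knockout sample 2 (0.16), and interferon-stimulated genes are high in knockout sample 1 (0.29).

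Genes of cell death, the subject named by the series title, were balanced between the genotypes. Of 48 listed pro-apoptotic genes 44 were measured, 25 above 0 and 19 below, with a median of 0.01, and the 95% interval lay within 2-fold for 42 of them. Fas, the death receptor, had the smallest p. It read 0.71, 0.86 and 0.99 in starved knockout samples and 1.13, 0.89 and 1.33 in starved wild-type samples (-0.26, 95% interval -0.51 to -0.02, adjusted p = 1). Tnfsf10, which encodes the death ligand TRAIL, differed by 0.30 (95% interval -0.08 to 0.68). Pmaip1, which encodes the BH3-only protein NOXA, read 2.47, 1.78 and 2.11 in knockout samples and 1.77, 1.78 and 2.04 in wild-type samples (0.26, 95% interval -0.08 to 0.59). Bcl2l11, which encodes the BH3-only protein BIM, differed by 0.24 (95% interval -0.15 to 0.63). Starvation raised Bcl2l11 in both genotypes, by 1.40 in knockout cells (adjusted p = 0.000107) and by 1.06 in wild-type cells (adjusted p = 0.00114). Endog and Casp1 differed by 0.11 and -0.12.

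Anti-apoptotic genes were as close. Of 42 listed genes 39 were measured, 18 above 0 and 21 below, with a median of -0.01. Bcl2, the founding survival factor of its family, read -1.83, -1.71 and -1.98 in starved knockout samples and -1.39, -1.72 and -1.75 in starved wild-type samples (-0.22, 95% interval -0.51 to 0.07). Igf1r, the receptor for insulin-like growth factor 1, differed by 0.21 and Xiap, an inhibitor of caspases, by 0.12, each without overlap. Csf2ra, the alpha chain of the GM-CSF receptor, differed by -0.27, also without overlap. In all, 2 of the 39 genes lay wholly higher and 1 wholly lower in knockout samples, against 2.88% and 2.32% of all genes. Birc3 and Traf1 differed by -0.13 and 0.35, with overlap. Targets of p53 had a median of 0.01, with 15 genes above 0 and 14 below.

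Hypoxia genes, the set that HIF controls, did not lean to either side. Of 45 listed genes 44 were measured, 21 above 0 and 23 below, with a median of -0.0017. In 3 of the 44 the knockout samples lay wholly above the wild-type samples, against 2.88% of all genes. Ndrg1, a stress-response gene, read 6.73, 6.53 and 6.30 in starved knockout samples and 6.22, 6.30 and 6.11 in starved wild-type samples (0.31 ± 0.15). Vldlr, the very-low-density lipoprotein receptor, read -0.48, -0.59 and -0.64 in knockout samples and -0.71, -0.87 and -0.89 in wild-type samples (0.26 ± 0.13). Hilpda, an inhibitor of lipid droplet breakdown, differed by 0.15 with overlap, and starvation raised it by 1.18 in knockout cells (adjusted p = 2.66e-06) and by 0.82 in wild-type cells (adjusted p = 8.81e-05).

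Metabolic and stress lists had medians near 0, and several changed sign with 1 sample left out. The median was -0.06 for 22 glycolysis genes, where Eno2 gave -0.36 ± 0.16. It was 0.03 for 37 genes of the ATF4 amino acid response, -0.04 for 22 genes of the unfolded protein response and 0.05 for 23 inhibitors of mTORC1 and FOXO targets. Without knockout sample 1 these became -0.05, 0.03 and -0.02. For 41 genes of autophagy and lysosome it was 0.0012, although Atp6v0d2, a subunit of the proton pump, gave -0.37 ± 0.16. For 51 genes of oxidative phosphorylation it was -0.01, and every interval of that list lay within 2-fold. The 12 proposed substrates and partners of PHD3 had a median of -0.02. Acacb, an acetyl-CoA carboxylase that PHD3 has been reported to hydroxylate, read -5.25, -5.28 and -5.18 in starved knockout samples and -5.14, -4.86 and -5.03 in starved wild-type samples (-0.23 ± 0.18).

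**Figure D5:**
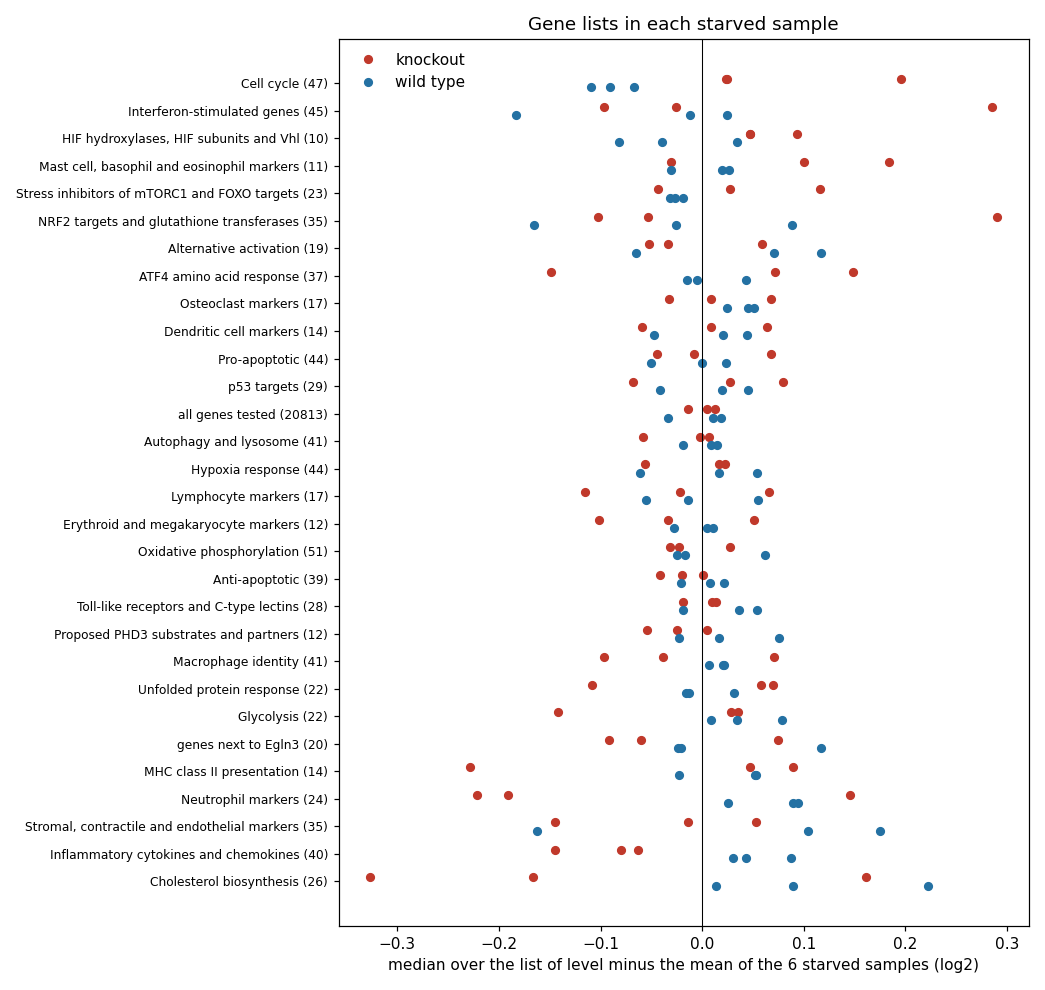
Median over each gene list of the level minus the mean of the 6 starved samples (log2, x axis), with knockout samples in red drawn above wild-type samples in blue and the number of measured genes in brackets. Cell cycle genes, cytokines and the HIF hydroxylase list keep the genotypes apart by small margins, although the HIF hydroxylase median changed sign in 2 of 18 alternatives. The cholesterol, NRF2, interferon and neutrophil lists are among those that spread most within the knockout samples.

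Markers of other cells were examined because marrow cultures can hold them. Of 28 neutrophil genes 24 were measured, 18 well above background in all 6 samples and 2 in none, and 20 had a difference below 0 with a median of -0.14. Their summed level ranged from 7.05 to 7.17 in knockout samples and from 7.11 to 7.24 in wild-type samples. The median deviation of the list was -0.22, 0.15 and -0.19 in knockout samples and 0.09, 0.09 and 0.03 in wild-type samples, low in the same knockout samples as cholesterol biosynthesis. Without knockout sample 3, 12 of the 24 genes lay below 0 and the median was -0.00057, and with the slide as a fixed term it was -0.42. Camp, the cathelicidin of neutrophil granules, read -3.16, -2.84 and -2.91 in knockout samples and -2.48, -2.63 and -2.28 in wild-type samples (-0.50 ± 0.19), and Mmp9, a gelatinase, differed by -0.51 ± 0.19. The part of neutrophil transcripts in the other results was not tested. Lyz2 is also a neutrophil transcript.

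Of 41 stromal, contractile and endothelial genes 35 were measured, 22 lay below 0, and 5 were not well above background in any of the 6 samples. The median was -0.15, and -0.02 without knockout sample 1. Their summed level ranged from 5.98 to 6.05 in knockout samples and from 5.92 to 6.02 in wild-type samples. Lum, a proteoglycan of fibroblasts, read -4.86, -4.28 and -4.17 in knockout samples and -3.54, -4.10 and -3.76 in wild-type samples, and Postn, a matrix protein, differed by -0.63 ± 0.23 with overlap. On the other side 13 genes lay above 0. The highest was Col5a1 at 0.86, well above background in 1 knockout sample and 0 wild-type samples. In 2 of the 35 genes the knockout samples lay wholly above and in 1 wholly below, against 2.88% and 2.32% of all genes. The lists for osteoclasts (17 measured genes), lymphocytes (17), dendritic cells (14), the erythroid and megakaryocyte lineages (12) and granulocytes of the mast cell, basophil and eosinophil kinds (11) had medians between -0.0048 and 0.056. Of the 17 lymphocyte genes, 8 lay above 0 and 9 below, and the lowest was Jchain at -0.71. Cd79b, a chain of the B-cell receptor, read 2.81, 2.92 and 2.78 in knockout samples and 2.51, 2.50 and 2.47 in wild-type samples (0.34 ± 0.13, adjusted p = 1).

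Genes around Egln3 were described because a targeted locus can carry flanking sequence of another strain. Of the 10 nearest measured genes on each side, none passed, 5 lay above 0 and 15 below, and the median was -0.07. The 3 nearest on each side, Akap6, Arhgap5 and Nubpl, and Sptssa, Eapp and Snx6, had differences between -0.15 and 0.13 with overlapping groups. Scfd1, a vesicle transport factor, was the only 1 of the 20 neighbours whose groups did not overlap, against 2.32% of all genes with the knockout lower. Scfd1 differed by -0.21 (unadjusted p = 0.132). It was named after its values were seen.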

How the data were processed

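RNA of 18 samples was hybridised to 20 one-colour Agilent mouse arrays on 5 slides. Per the file headers, the authors deposited background-subtracted intensity values (gProcessedSignal) made with Agilent Feature Extraction 10.7.3.1 on a design annotated to mm9. The labelling protocol names Cy3, although the label field says biotin. The authors' deposited series table holds log2 values whose sorted columns are nearly identical, and it was used as an alternative only. The submitters' processing notes name limma.

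Intensities were taken to log2, and the 75th percentile of each array on that scale was then subtracted. Spots flagged as outliers and control spots were left out, spots of a probe and arrays of a sample were averaged, and 0.117% of values were missing. A gene was represented by its brightest probe and kept when well above background in at least 3 samples, with at least 2 values in each group. The 20813 genes kept include 14008 with a symbol. Between 56.1% and 65.4% of 43020 spots were well above background on each array, and the number of arrays limits the precision. limma 3.58.1 in R 4.3.3 was fitted with 6 group means over all 18 samples, moderated two-sided tests and Benjamini-Hochberg adjustment over all genes at 0.05. The fit was tested on simulated data. Each p-value measures only the spread between samples, which may be partly technical where samples share a mouse.

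The genes named are Egln3 and the HIF hydroxylase list, 12 genes in each direction with the smallest p among genes with a symbol and groups that did not overlap, the 3 members of smallest p in each list (6 for the cell death lists) and the 3 genes nearest Egln3 on each side. Exceptions are stated, and some genes that the rule names are not reported here. The members and lists were chosen with earlier results of these data known. The sources used here state no pairing of knockout with wild-type samples by number, and the samples were treated as unpaired. Correlations of same-numbered samples are given below and cannot decide it. The background alternative used the median in place of the mean spot signal, with normexp and an offset of 50. Gene names come from the array annotation, updated through RefSeq tables of GRCm38.p6, which name 26055 of 39429 probes. Other alternatives were quantile scaling, the authors' log2 table, no filter on dim probes, slide and replicate blocks, other probe and array choices, the 6 starved samples alone and each sample left out.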

Additional observations from a re-analysis of the deposited data

How the results depend on the processing

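No gene passed between the starved genotypes in the reported fit. Quantile normalization gave 2 calls, Lyz2 (-1.09, adjusted p = 0.0474) and XM_001476382. With the replicate number as a block the count was 1, Lyz2 (-1.06, adjusted p = 0.0337). Deviations of same-numbered knockout and wild-type samples correlated at -0.024, 0.0026 and 0.093, which cannot decide whether the samples were paired. Lyz2 passed in these 2 of 18 alternatives only. Elsewhere its limma adjusted p was lowest, 0.065, with the slide as a random block. It was 0.29 with the authors' table, 0.531 with the first array of each sample, and higher still in the 6 starved samples alone. Leaving out 1 starved sample gave between 0 and 2 calls. The unstarved count of 2 became 1 without a filter on dim probes, 1 with the replicate block and 1 with the first array of each sample alone, and it was 0 after averaging per genotype and number, an alternative chosen after seeing the data. Leaving out 1 unstarved sample gave between 1 and 2 calls. Both tests of a difference between conditions gave 0 calls in every alternative run, and the 6 starved samples alone give no such value. The Egln3 difference kept its sign in all 18 alternatives, between -0.17 and -0.0076. Of 2147 values of the 120 named genes, 25 changed sign, in 13 genes, and none of these was past the threshold. Of 522 list medians 73 changed sign, in 20 lists. The cause was not tested in these cases. Dim genes had the widest intervals.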

Other observations

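The Trim12a values of wild-type samples numbered 1 recurred across conditions. They were -6.99 when starved, -7.07 at oxygen 1 and -4.97 with control feeding, against 2.64 to 3.43 in the other measured wild-type samples. Knockout samples numbered 3 read 1.79 when starved, 1.92 at oxygen 1 and 1.89 with control feeding, against 2.60 to 3.06 in the other knockout samples. Over all genes, deviations of same-numbered samples of one genotype correlated on average at 0.0043 to 0.163 between conditions, and those of different numbers at -0.082 to -0.0032. The deviations are from the mean of each group and sum to 0 within it. The values for different numbers therefore largely follow from those for the same number and are no separate comparison. The sources used here do not say whether a number marks one mouse, and it was not tested. If it does, the 9 knockout and 9 wild-type values of Lyz2 come from 3 mice of each genotype.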
